A study of Glycine max with 12 samples.

Results

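In the seed coat of a pair of soybean lines with a black saddle, 131 of 56044 genes were strongly higher in the saddle than in the yellow region of both lines. They were taken by a rule on RPKM, which divides the hits of a transcript by its length and by the library's summed hits. Each gene was represented by its transcript model with the longest cDNA. Its mean log2(RPKM + 1) over the 3 black libraries had to exceed that over the 3 yellow libraries by at least 2.5 in Clark 8 and by at least 2.5 in Clark 18a. In all, 133 genes met both thresholds, and 2 of them, Glyma.01G228700 and Glyma.11G011500, belong to a set of 9 identifiers that the rule leaves out by name. Because the members were chosen on the difference between the regions, that difference is given below as a description and carries no test. The differences between the lines within a region and between the repeats were not read directly by the rule, and these were tested. The line tests are not independent of the choice, however. Asking for the threshold in both lines leaves out 40 genes past it in Clark 8 alone and 51 past it in Clark 18a alone.

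The 12 libraries hold polyadenylated RNA from immature seed coats, 3 for each line and region. Clark 8 is i-k at the I locus and K1 at the K1 locus, Clark 18a is i-i and k1, and so the lines differ at both loci. All 4 groups share greenhouse growth, whole seeds of 100 to 200 mg fresh weight, coats cut into the future black saddle and the future yellow sections, and freeze-dried tissue. The 3 libraries of a group are biological repeats per the labels, which name no plants. The p-values here set a difference against the spread between these libraries, estimated with help from all genes tested. They reach no further than these samples.

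In soybean the black colour of the coat comes from anthocyanins, which are built by the flavonoid pathway from chalcone synthase onwards. The I locus holds chalcone synthase genes whose small RNAs silence that enzyme in the coat, and its alleles differ in where the coat stays free of pigment: i-i leaves pigment in the hilum and i-k leaves it in a saddle around it. The series title ties K1 to Argonaute5, one of the proteins that carry small RNAs, and with the recessive k1 allele a saddle forms on an i-i background. The members are given by identifier only, because the tables used here pair none of them with a gene name, and so no role is given to any of them. The labelled regions were therefore not checked against named marker genes either.

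Depth and the repeats differed between libraries. Summed hits ran from 83123127 to 192296346, and each library of Bio Repeat 3 had at most 89505760, less than any other. One library stood apart. In Clark 18a black repeat 3, 41 genes lay under 0.1 RPKM while all the other 5 black libraries had at least 5 RPKM, and for each of the other black libraries the same count was 0. Transcript models listed at 0 there and at 1 RPKM or more in all the other 11 libraries numbered 29, against 0 for every other library. Of the 41 genes, 40 were also lower in Clark 8 black repeat 3 than in repeats 1 and 2, with a median ratio of 3.46, whereas 38 had at least 1 RPKM in the yellow library of Clark 18a repeat 3. Their median cDNA length was 576 bases, against 1728 over the genes tested.

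Of those 41 genes, 3 are members: Glyma.09G055000, Glyma.09G055100 and Glyma.18G297300. Glyma.10G125800 was also listed at 0 in that library, and its level in Clark 8 black repeat 3 was 3.67 RPKM. Glyma.09G055000 had 400, 435 and 110 RPKM in the black repeats of Clark 8 and 509, 230 and 0 in those of Clark 18a. No hit was recorded for it in the last of these, where 3 hits would have been 0.0609 RPKM, and that library lay below all 6 yellow ones. With that library the region difference of Glyma.09G055000 in Clark 18a was 4.21, and without it 7.01. For Glyma.09G055100 the values were 4.11 and 6.89, for Glyma.10G125800 2.58 and 4.02, and for Glyma.18G297300 2.58 and 3.87. All 4 meet the rule either way, and they are the 4 members whose black and yellow libraries overlap.

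Among the members the region difference was of similar size in the lines, which the rule favours because it sets the same threshold in both. Its median over the members was 3.31 on the log2(RPKM + 1) scale in Clark 8 and 3.28 in Clark 18a, where the medians of all 30775 genes tested were -0.07 and -0.02. Genes past the threshold in Clark 8 numbered 173, which is 0.562% of the genes tested, and those past it in Clark 18a were 0.591% of them. Both thresholds together were met by 0.432%. In the other direction, 17 genes were past the same threshold toward yellow in both lines. The members' region difference was the larger in Clark 8 for 61 of them and the larger in Clark 18a for 70, and for 109 the pair of values lay within 0.5 of each other. In 4 members they lay more than 1 apart, namely Glyma.09G055000, Glyma.09G055100 and Glyma.18G297300, described above, and Glyma.14G032000, with 2.50046 in Clark 8 and 3.75 in Clark 18a.

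The black and yellow libraries did not overlap for 127 of the 131 members. Among all genes tested, 8.36% had all 6 black libraries above all 6 yellow ones. Taken repeat by repeat, 65 members reached 2.5 in all 6 pairs of a black and a yellow library with the same line and repeat number, and 128 were above 0 in all 6. The exceptions were Glyma.09G055000, Glyma.09G055100 and Glyma.10G125800. The median difference per pair ran from 3.01 in Clark 18a repeat 3 to 3.61 in Clark 8 repeat 1. The number of members reaching 2.5 was lowest in Clark 18a repeat 3, with 99, and highest in Clark 18a repeat 2, with 122.

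**Figure D1:**
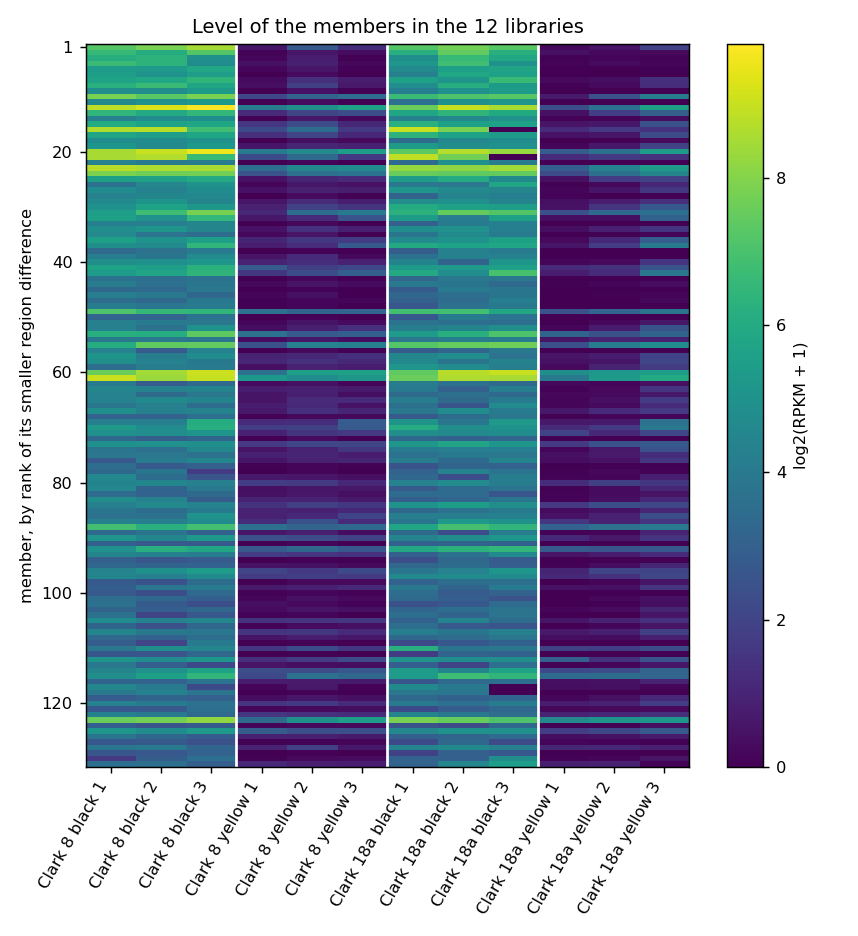
Level of the 131 members, as log2(RPKM + 1) by colour, in the 12 libraries (columns), ordered by the smaller of the 2 region differences (rows). The black libraries are lighter than the yellow ones apart from 4 dark cells. These cells lie in Clark 18a black 3 and are the members with almost no hits in that library.

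The members were abundant in the saddle and mostly low in the yellow region. Their mean RPKM over the 6 black libraries had a median of 18.2, from 5.37 for Glyma.09G148600 to 509 for Glyma.10G214500, where the genes tested had a median of 4.19. The rule itself asks for a black level above that median, so this describes the choice. Over the 6 yellow libraries their mean had a median of 0.763 RPKM, from 0.0117 for Glyma.14G122000 to 35.9 for Glyma.16G014100, where the genes tested had 4.27. In black, 26 members lay under 10 RPKM, 62 from 10 to 30, 28 from 30 to 100 and 15 at 100 or more. In bulk tissue, fewer cells of a type and less RNA per cell cannot be told apart, so a low yellow level does not say which of these it is.

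A few members carried much of the group's RNA. The 131 members together held 1.66% to 2.35% of all RPKM in the black libraries and 0.0579% to 0.189% in the yellow ones. The 8 most abundant held 42.4% of the members' summed mean black level: Glyma.10G214500 (509 RPKM), Glyma.10G214200 (424), Glyma.12G217300 (387), Glyma.16G014100 (368), Glyma.13G081000 (360), Glyma.09G055000 (281), Glyma.09G055100 (262) and Glyma.09G043500 (208). The adjacent Glyma.09G055000 and Glyma.09G055100 had close numbers of hits, such as 28694 and 28710 in Clark 8 black repeat 1 and 15711 and 15721 in Clark 18a black repeat 2. Whether the same reads were counted for both was not tested. The members' coefficient of variation between the black repeats of a line, pooled over the lines as a root mean square, had a median of 33.4%, from 5.78% for Glyma.14G148300 to 84.2% for Glyma.09G055100, which includes the library with no hits for it. Over the 12728 genes tested whose mean black level lay between those of the lowest and the highest member, it was 18.3%.

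Glyma.09G043500 had the largest region difference in both lines. In Clark 8 its black repeats had 144, 232 and 359 RPKM and its yellow repeats 0.476, 5.79 and 1.44. In Clark 18a the black repeats had 147, 211 and 153 RPKM and the yellow ones 0.167, 0.413 and 2.69. The lowest black library was thus far above the highest yellow one, and the high yellow values were those of Clark 8 repeat 2 and Clark 18a repeat 3. The region difference was 6.31 in Clark 8 and 6.53 in Clark 18a.

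Glyma.09G084200 followed. Its black repeats had 95.1, 67.4 and 144 RPKM in Clark 8 and 70.4, 175 and 71.4 in Clark 18a. Its yellow repeats had 0.0754, 0.497 and 0.255 RPKM in Clark 8 and 0.343, 0.145 and 0.178 in Clark 18a. All 6 yellow libraries stayed under 0.5 RPKM, and the region differences were 6.28 and 6.31.

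Glyma.18G190000 and Glyma.07G139400 came next and resembled each other. Glyma.18G190000 had 69.5, 80.9 and 29.8 RPKM in the black repeats of Clark 8 and 28.6, 94.7 and 56.2 in those of Clark 18a. Glyma.07G139400 had 103, 80.6 and 26.8 RPKM in the black repeats of Clark 8 and 34.8, 110 and 31.7 in those of Clark 18a. Both were highest in Clark 18a repeat 2 and low in Clark 8 repeat 3 and Clark 18a repeat 1. In Clark 18a repeat 3 they differed, with 56.2 RPKM for Glyma.18G190000 and 31.7 for Glyma.07G139400. Neither passed 1 RPKM in any yellow library.

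The other 8 of the 12 members with the largest smaller region difference were Glyma.19G091800, Glyma.19G051100, Glyma.04G198500, Glyma.01G018100, Glyma.06G277400, Glyma.05G202700, Glyma.04G014800 and Glyma.10G214500. They reached their difference from different levels. Glyma.04G014800 had 24.0, 30.4 and 37.1 RPKM in Clark 8 black and 10.9, 29.7 and 34.0 in Clark 18a black, and was listed at 0 in the yellow repeats 2 and 3 of Clark 18a. Glyma.10G214500 had 456, 627 and 907 RPKM in Clark 8 black and 192, 499 and 374 in Clark 18a black. Its yellow repeats still had 16.5, 28.0 and 48.7 RPKM in Clark 8 and 4.14, 10.9 and 46.5 in Clark 18a. Repeat 3 was the highest yellow library of each line for Glyma.10G214500, and the black libraries did not reach down to it.

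**Figure D2:**
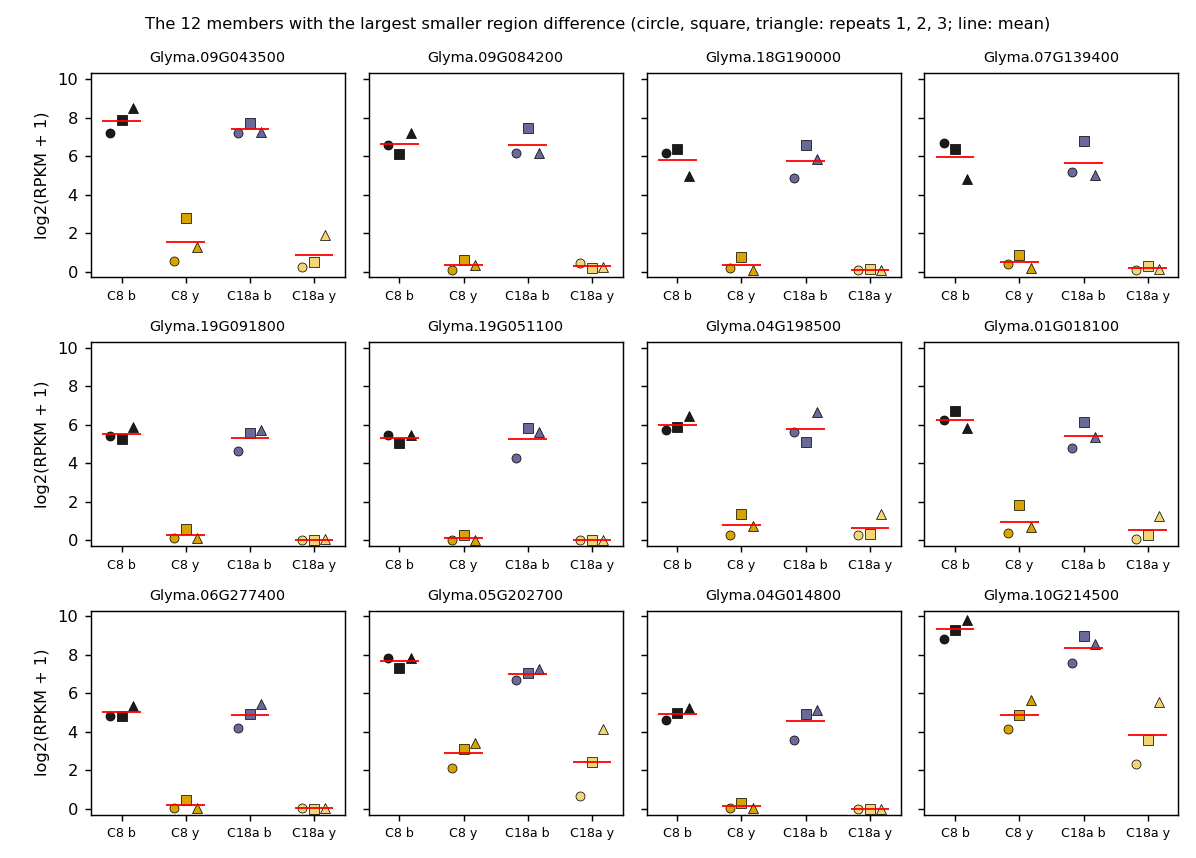
Log2(RPKM + 1) of the 12 members with the largest smaller region difference in each library, by group (C8 and C18a, Clark 8 and Clark 18a; b and y, black and yellow), with circle, square and triangle for repeats 1, 2 and 3 and a red line at the group mean. All black points lie above all yellow points, and yellow levels range from near 0 for Glyma.04G014800 to several units for Glyma.10G214500.

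At the threshold itself the choice was narrow. Just inside it lay Glyma.20G247800, Glyma.08G226800, Glyma.13G196200 and Glyma.14G032000, with smaller region differences of 2.50579, 2.50445, 2.50182 and 2.50046. Just outside lay Glyma.13G335200, Glyma.13G270300, Glyma.07G023300 and Glyma.14G007800, with 2.49988, 2.49942, 2.49595 and 2.4931. The gap between the last member and the first gene left outside is far smaller than the spread between repeats. Glyma.13G196200, for example, had 2.09, 6.49 and 11 RPKM in Clark 8 black and 7.56, 6.97 and 28.1 in Clark 18a black.

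Yellow levels split the members into those nearly silent there and those with a clear level. In all 6 yellow libraries, 54 members were at 1 RPKM or less, and 24 had a yellow mean under 0.1. The mean was at least 1 RPKM in 54 members and at least 10 in 9. The libraries did not contribute evenly to what remained. Clark 8 yellow repeat 2 was the highest of the 6 yellow libraries for 47 members and Clark 18a yellow repeat 3 for 62, while Clark 18a yellow repeat 1 was the lowest for 84.

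The library that was highest differed with the members' yellow level. Of the 24 with a yellow mean under 0.1 RPKM, Clark 8 yellow repeat 2 was the highest for 21. There these 24 had a median of 0.957% of their mean black level in Clark 8, with every one of them between 0.374% and 2.85%. In the other yellow libraries the median of the same 24 was between 0.0669% and 0.164% of the mean black level of the line. Glyma.19G051100, as 1 of these, had 0.0144, 0.219 and 0.0244 RPKM in the yellow repeats of Clark 8 and 0.0173, 0.00814 and 0.0232 in those of Clark 18a. For it repeat 2 of Clark 8 stood above the other 5, although at a level of less than 1 RPKM.

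Among the 54 members with a yellow mean of at least 1 RPKM, the highest library was Clark 18a yellow repeat 3 for 31 and Clark 8 yellow repeat 2 for 8. Their median level in Clark 18a yellow repeat 3 was 13.0% of the mean black level of that line, against 3.06% in repeat 1 and 5.19% in repeat 2. In Clark 8 the medians of the 54 were 4.46%, 7.06% and 8.14% in yellow repeats 1, 2 and 3. The members' summed yellow RPKM moved likewise, with 252.7, 421.7 and 465.6 in Clark 8 and 186.1, 307.8 and 627.4 in Clark 18a. Whether black tissue in a yellow sample had a part in these values was not tested.

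**Figure D3:**
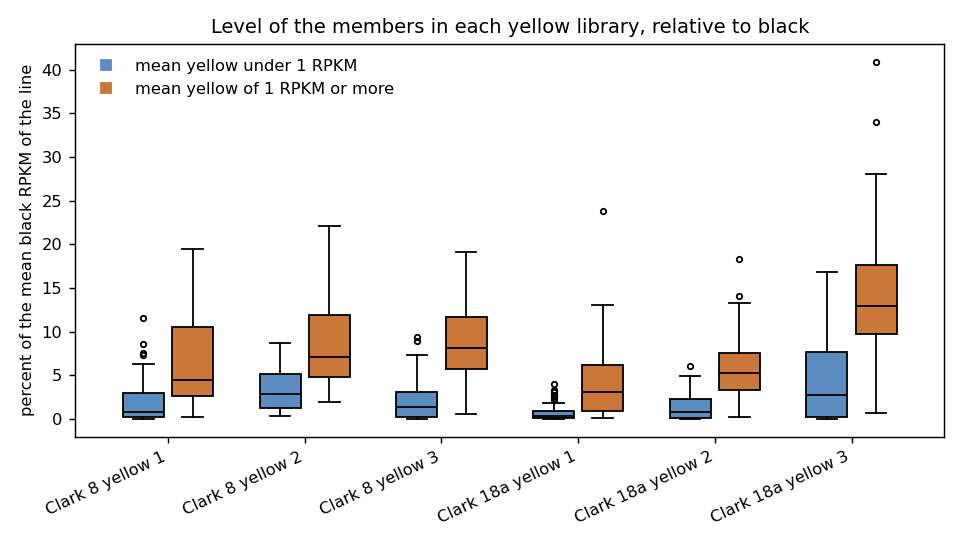
Level of the members in each yellow library as a percent of the line's mean black RPKM, for the 77 members with a yellow mean under 1 RPKM and the other 54 (boxes, quartiles; middle line, median; whiskers, 1.5 times the interquartile range; circles, values beyond). Clark 18a yellow 3 is the highest for the 54, with a median of 13.0%, and Clark 8 yellow 2 has the highest median for the 77, at 2.85%.

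Members stood on all 20 chromosomes and on none of the unplaced scaffolds, from 3 members on each of chromosomes 1, 11, 13, 16 and 20 to 11 on chromosome 4. By share of the genes tested on a chromosome, this was 0.139% on chromosome 13 to 0.738% on chromosome 4. In identifier order, 15 members formed 7 runs of adjacent genes, and 21 members lay at most 5 identifiers from another. The runs were Glyma.04G014700 with Glyma.04G014800, Glyma.04G198400 with Glyma.04G198500, Glyma.06G014700 with Glyma.06G014800, Glyma.06G166900 with Glyma.06G167000, Glyma.09G055000 with Glyma.09G055100, Glyma.12G217300 with Glyma.12G217400, and the 3 genes Glyma.07G240800, Glyma.07G240900 and Glyma.07G241000.

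Several neighbours had the same length and moved together between black libraries. Glyma.06G014700 and Glyma.06G014800 both have a coding length of 1053 bases, and their log2(RPKM + 1) correlated with r = 0.993 over the 6 black libraries. Glyma.04G014700 and Glyma.04G014800 both have 1050 bases, with r = 0.889. Of the 11 pairs of members at most 5 identifiers apart, 10 had r between 0.746 and 1.0, and Glyma.04G044600 with Glyma.04G044800, 2 identifiers apart, had r = -0.914. These correlations describe 6 libraries that share depth and repeat, and over all 8515 pairs of members the median r in black was 0.07.

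Pairs of like members also lay on different chromosomes. In 34 pairs each gene was the other's most similar member over the 12 libraries, by the same correlation. That correlation holds the region difference the members were chosen on, and its median over all pairs of members was 0.949. In 19 of these pairs, 55.9%, the coding lengths were within 5% of each other, against 5.13% of all pairs of members, and 15 of the 19 join different chromosomes. Over the 6 black libraries alone, r in these 19 pairs ran from 0.411 to 1.0, and in 1 of the 34 pairs it was -0.164. Examples are Glyma.09G046400 and Glyma.15G154100, both of 1098 bases, Glyma.05G181500 and Glyma.08G139200, both of 462, Glyma.03G210100 and Glyma.19G207300, both of 306, and Glyma.13G081000 and Glyma.14G148300, of 1170 and 1164. Glyma.07G139400 and Glyma.18G190000, among the leading 4, are another such pair. How the authors treated hits to near-identical genes is not given in the sources used here, so the split of reads within such a pair is uncertain, and whether the pairs are copies was not tested.

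For the 3 leading members, the most similar members over the 6 black libraries were named by the same correlation. Glyma.09G043500 was closest to Glyma.10G214200 (r = 0.841), Glyma.10G214500 (0.829) and Glyma.02G213000 (0.741). Glyma.09G084200 was closest to Glyma.08G010000 (0.839), Glyma.12G217400 (0.777) and Glyma.06G069400 (0.760). Glyma.18G190000 was closest to Glyma.02G145100 (0.956), Glyma.07G139400 (0.857) and Glyma.02G282300 (0.824). These are the highest 3 among all other members, each over only 6 libraries, so picking the highest gives large values by itself. Whether any of these genes are linked was not tested.

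The members were shorter than other genes tested. Their median coding length was 819 bases against 1068, and their median cDNA length 1325 against 1728. Coding lengths under 300 bases were found in 14 members, 10.7%, against 6.34% of the genes tested. The shortest were Glyma.02G282300 and Glyma.14G032000, with 153 bases, and the longest was Glyma.07G046000, with 3558. A single transcript model was listed for 102 members, 77.9%, against 62.2% of the genes tested.

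The remaining 29 members have 44 further models, of which 39 were themselves past the threshold in both lines. The other 5 were 1 model of Glyma.13G196200 and 4 models of Glyma.10G214200. The model of Glyma.10G214200 used here, with the longest cDNA (1063 bases), had 548 ± 202 RPKM in Clark 8 black and 28.0 ± 14.3 in Clark 8 yellow (SD, n = 3). In Clark 18a it had 300.1 ± 129 in black and 19.8 ± 18.98 in yellow (SD, n = 3). Its other 4 models lay between 2.69 and 4.43 RPKM in every group. The large difference of this gene was therefore in 1 model, whose levels followed those of Glyma.10G214500, 3 identifiers away, with r = 0.999 over the 6 black libraries.

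The lines were then compared within each region, which asks whether the strong saddle genes have other levels where the saddle forms with i-k and K1 than where it forms with i-i and k1. No member passed the test in the black saddle: limma called 0 of 131 at an adjusted p under 0.05, where it called 0.0812% of all genes tested (0.0195% higher and 0.0617% lower). At an unadjusted p under 0.05 there were 5 members, 3 higher and 2 lower in Clark 18a, which is 3.82% of the members against 5.61% of all genes. The median difference of the members was -0.10, against 0.02 over all genes, with 50 above 0 and 81 below. The smallest p in black was that of Glyma.20G179700. It had 18.4, 23.8 and 20.2 RPKM in Clark 8 and 31.8, 43.5 and 28.3 in Clark 18a, so that the groups did not overlap. Its difference was 0.69 (SE 0.213, limma adjusted p = 0.739).

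In the yellow region limma also called 0 of 131 members, where it called 0.413% of all genes tested (0.107% higher and 0.305% lower). At an unadjusted p under 0.05 there were 2 members, 1 higher and 1 lower, which is 1.53% of the members against 13.4% of all genes. The median difference was -0.08, against -0.02 over all genes, and 95 members were below 0. The fit gives each gene 1 spread over all 12 libraries, so the yellow test of a member also draws on its black libraries. For Glyma.09G055000 the yellow standard error was 1.79, and 0.574 without Clark 18a black repeat 3. In addition, 77 members had a yellow mean under 1 RPKM, where the log2(RPKM + 1) scale understates changes. The low share therefore does not show that the lines are more alike in the members. Glyma.10G080000 had the smallest p. Its yellow levels were 4.26, 3.68 and 2.71 RPKM in Clark 8 and 1.12, 0.589 and 1.86 in Clark 18a, without overlap. The difference was -1.08 (SE 0.272, limma adjusted p = 0.134), and in the black saddle of the same gene the libraries of the lines overlapped, with 33.5, 21.9 and 36.9 RPKM in Clark 8 and 19.96, 27.1 and 34.9 in Clark 18a.

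The lowest differences in black were those of Glyma.09G055000, -2.46, and Glyma.09G055100, -2.41, which include the Clark 18a library with no hits for them. Without that library they were 0.35 and 0.36, so their direction turned, and limma's adjusted p was 0.893 and 0.892. Glyma.10G125800 turned likewise, from -0.71 to 0.73 (adjusted p = 0.677), and Glyma.18G297300 went from -1.42 to -0.13 (adjusted p = 0.804).

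These tests do not show that the lines are alike in the members. The rule itself favours such likeness, because it sets the same threshold in both lines. The shares called are therefore not those of genes chosen without regard to line. The 95% interval of the line difference stayed within 1 log2 unit of 0 for 62 members in black and for 74 in yellow, and reached past 1 for the other 69 and 57. In yellow, 54 members were at 1 RPKM or less in all 6 libraries, where log2(RPKM + 1) keeps the difference under 1 whatever the ratio. Glyma.19G091800, with yellow means of 0.223 RPKM in Clark 8 and 0.0150 in Clark 18a, had a difference of -0.25. The count of 74 is therefore no measure of likeness between the lines. The distance from the estimate to either end of the interval had a median of 0.739, from 0.237 for Glyma.14G216400 to 3.94 for Glyma.09G055000. The standard error had a median of 0.335 in the members, against 0.179 over all genes. Without the 4 libraries of Bio Repeat 3, limma called 1 member in black, Glyma.17G069500, lower in Clark 18a, where it called 4.03% of all genes. Without them it called 5 in yellow, all lower in Clark 18a (Glyma.03G233500, Glyma.06G242900, Glyma.09G156700, Glyma.10G080000 and Glyma.12G154300), where it called 11.8% of all genes. In repeats 1 and 2 each line has its own run of library numbers, so line and library run cannot be told apart there.

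**Figure D4:**
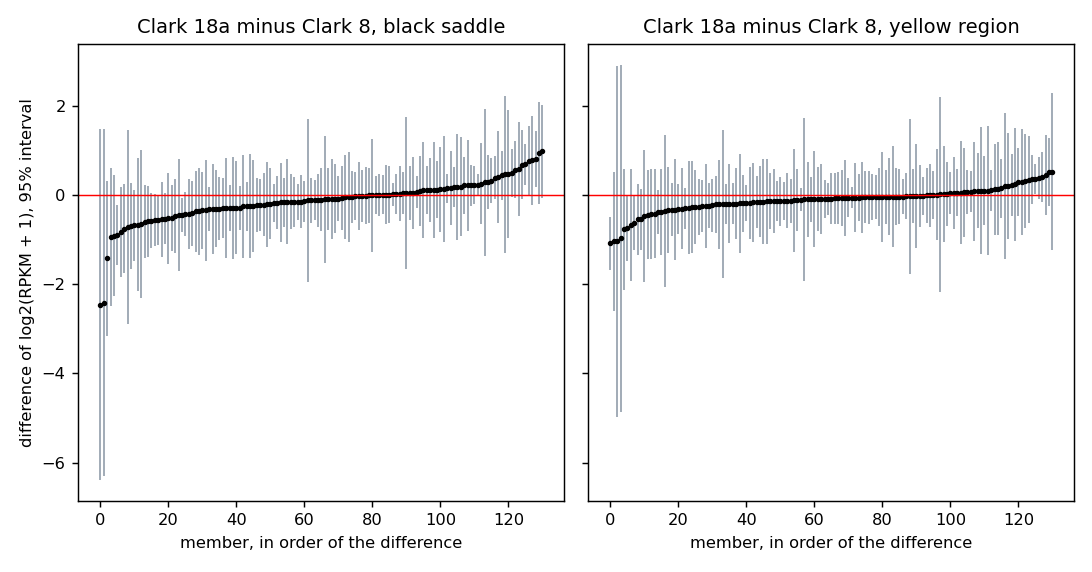
Clark 18a minus Clark 8 difference of log2(RPKM + 1) for each of the 131 members, in order of the difference, with the 95% interval from limma (grey bars), in the black saddle (left) and the yellow region (right). None of the 131 passed the adjusted threshold in either region, and the 2 lowest points on the left are Glyma.09G055000 and Glyma.09G055100.

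Bio Repeat 3 was set against repeats 1 and 2 in all 4 groups together, since its libraries carry a run of library numbers that spans both lines, where those of repeats 1 and 2 run separately for each line. Limma called 24 members, 22 higher and 2 lower in repeat 3. As shares of the members, 16.8% were higher and 1.53% lower, where of all genes tested 12.5% were called higher and 15.2% lower. In both directions together, 18.3% of the members were called and 27.7% of all genes. Within a line, black and yellow libraries of the same repeat deviated from their group means alike. For repeats 1, 2 and 3, r was 0.745, 0.592 and 0.724 in Clark 8 and 0.577, 0.522 and 0.61 in Clark 18a. The fit took the 12 libraries as independent, so its p-values for repeat 3 can be too small and its calls too many. The median difference was 0.23 in the members and -0.02 over all genes. Of the 22 called higher, 11 stood above repeats 1 and 2 in all 4 groups, and 11 lay within 5 identifiers of another member called higher.

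The largest rise was that of Glyma.06G167000. In Clark 8 it had 18.6, 17.7 and 67.0 RPKM in black repeats 1 to 3 and 1.24, 1.46 and 6.29 in yellow. In Clark 18a it had 33.3, 13.5 and 38.1 RPKM in black and 0.585, 0.646 and 11.6 in yellow. Repeat 3 was the highest library in each of the 4 groups, and the difference was 1.81 (SE 0.302, limma adjusted p = 0.00267). Its neighbour Glyma.06G166900 rose by 1.60 (adjusted p = 0.00433), and then came Glyma.04G198400 with 1.60 (adjusted p = 0.00752), Glyma.07G240900 with 1.55 (adjusted p = 0.0161) and Glyma.10G214500 with 1.19 (adjusted p = 0.0486), all by limma. The called falls were those of Glyma.10G125800, -1.73 (adjusted p = 0.0404), which was -0.87 (adjusted p = 0.0938) without Clark 18a black repeat 3, and of Glyma.20G247800, -0.50 (adjusted p = 0.0390).

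The number of calls depended on single libraries. So did the share called over all genes, 27.7% with all libraries, which is given in brackets. The count of members fell to 7 without Clark 8 black repeat 3 (18.0%), to 11 without Clark 18a black repeat 3 (19.6%) and to 11 without Clark 18a yellow repeat 1 (22.1%). It was 14 without Clark 18a yellow repeat 2 (25.2%) or repeat 3 (20.4%). It was 15 without Clark 8 black repeat 1 (21.8%), black repeat 2 (23.7%) or yellow repeat 1 (22.4%). Calls of 7 members were kept whichever of the 12 libraries was left out: Glyma.04G011000, Glyma.04G198400, Glyma.06G166900, Glyma.06G167000, Glyma.07G240800, Glyma.07G241000 and Glyma.15G234100. That of Glyma.07G240900 was lost without the repeat 3 library of Clark 8 black, Clark 8 yellow or Clark 18a yellow, with limma adjusted p-values up to 0.0621. That of Glyma.10G214500 was lost under 10 of the 12, with a difference between 0.72 and 1.501 and an adjusted p of up to 0.188, and those of Glyma.10G125800 and Glyma.20G247800 under 8 each, with an adjusted p of up to 0.121 and 0.137.

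A repeat 3 difference that changes with region was fitted as well. For it limma called 0 of 131 members and 0.0% of all genes tested, with a smallest adjusted p of 0.18 in the members. At an unadjusted p under 0.05 there were 21 members, 16.0%, against 4.25% of all genes. The repeat 3 difference in black minus that in yellow was above 0 for 8 of them and below 0 for 13. A value below 0 can come from a rise in yellow or from a fall in black. The lowest value among the members, -4.61 for Glyma.09G055000, joins -5.17 in black and -0.56 in yellow. Its black value includes the black repeat 3 library with no hits for this gene. How many of the 13 rest on that library was not tested.

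**Figure D5:**
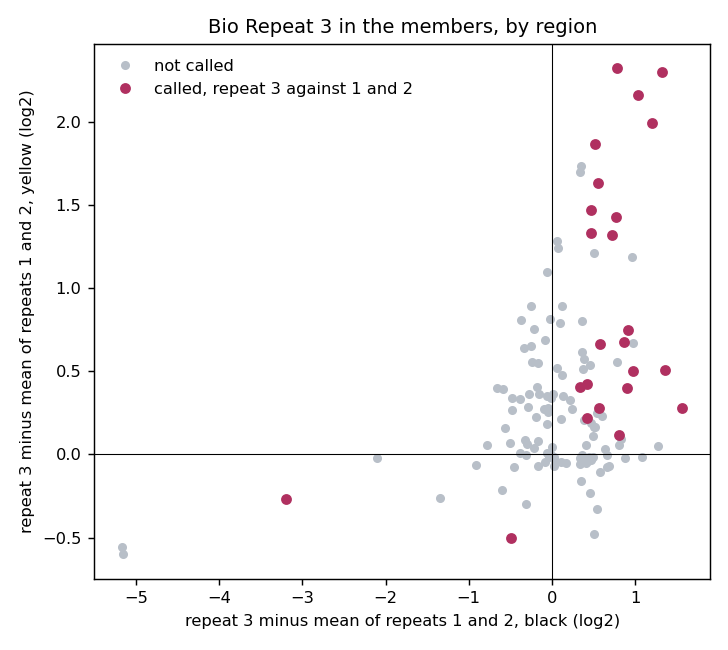
Repeat 3 minus the mean of repeats 1 and 2, as a difference of log2(RPKM + 1) averaged over the lines, in black (x axis) and in yellow (y axis) for each of the 131 members; red points are the 24 that limma called. The called rises lie above 0 in both regions and reach further in yellow, and the points at the far left are Glyma.09G055000 and Glyma.09G055100, which were not called.

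The 9 identifiers left out by name showed a wide range beside the members. Glyma.01G228700, with region differences of 3.16 in Clark 8 and 2.55 in Clark 18a, and Glyma.11G011500, with 3.08 and 2.54, would otherwise have been members. Glyma.08G062000 reached 1.45 and 2.11, and the other 6 lay between -1.44 and 1.14.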

How the data were processed

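The authors deposited RPKM values for 88647 transcript models of 56044 genes in 12 libraries, with coding and cDNA lengths per the file headers. The aligner was Bowtie 1, per the submitters' processing notes. Build, annotation version, handling of multiple hits and strandedness: none is given in the sources used here. Multiplied by cDNA length, low values were whole multiples of 1 hit (100% within 0.05 of a hit), and the library total this gives equals the hits summed over all models. That total ran from 83123127 to 192296346. A hit shared by several models may be counted more than once.

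The model with the longest cDNA stood for each gene. The 30775 genes that reached 1 RPKM in 3 or more libraries were tested. All 131 members passed, which the rule makes likely because they are high in black. The values, as log2(RPKM + 1), entered limma 3.58.1 under R 4.3.3 (4 group means, intensity trend, spread shared by 12 libraries), with two-sided p-values adjusted by the Benjamini-Hochberg method over all genes tested and a threshold of 0.05. Differences on this scale understate changes of low genes. The fit was tested on simulated data. Bio Repeat 3 entered as an added term. Its difference between regions was added after the data were seen, as were the split by yellow level, the count of genes low in a single library and the rule applied to the genes tested alone. With 3 libraries a group the smallest p of an exact permutation test is 0.1, which is why limma alone was used.

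The members and the lists were chosen with earlier results of these data known. Named members were the 12 with the largest smaller region difference, the 8 most abundant in black, those called between the lines, those just inside or outside the threshold, those adjacent by identifier, the 5 largest called changes in each direction in repeat 3, and the 3 most similar to each of the 3 leading members. Others, such as those with the smallest p between the lines, were chosen after their values were seen. Lists by annotation words could not be used, because 0 of the 59048 lines of the reference table (Glycine_max_v4.0) carry these identifiers.

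Libraries that share a repeat number deviated from their groups alike: between the lines these deviations correlated at 0.322, 0.124 and 0.503 in black and 0.331, 0.153 and 0.398 in yellow. Different numbers also correlated, at 0.257 and 0.290 between repeats 1 and 2 in black and 0.0310 and 0.288 in yellow, so repeats 1 and 2 are not told apart between the lines, whereas repeat 3 is. Between black and yellow of different lines, same-number values went down to 0.036, for Clark 8 yellow repeat 2 and Clark 18a black repeat 2. Since every same-number value within a region is over 0.1, the numbers were taken to pair the samples. Within a line, the library descriptions give the black and yellow libraries of a repeat a shared number. Between the lines the pairing came from the data and not from a label, as the descriptions number the repeats of Clark 18a otherwise than those of Clark 8. For repeats 1 and 2 the pairing between the lines is uncertain. Alternatives were other pseudocounts, filters, scaling, transcript models, thresholds and spreads, the block, and libraries left out.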

Additional observations from a re-analysis of the deposited data

How the results depend on the processing

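The count of members called between the lines was 0 in black and in yellow under each alternative run, apart from leaving out all of Bio Repeat 3, which gave 1 in black and 5 in yellow. Leaving out single libraries gave 0 to 0 in both. With the replicate block, which pairs the samples by repeat number, the counts were also 0 and 0 (smallest limma adjusted p 0.0966 in black and 0.0771 in yellow), so the block changed no call. For repeat 3 the 24 calls (27.7% of all genes) became 10 with no filter on low values (16.1%), 1 in the 6 black libraries alone (Glyma.10G125800, 1.71%) and 3 in the 6 yellow libraries alone (2.72%), and ranged from 7 to 23 when single libraries were left out. The fits of 6 libraries use fewer samples, and they do not count black and yellow libraries of the same repeat as independent. The number of members rested on the pseudocount and threshold: 812 genes met the rule with a pseudocount of 0.1, 264 with 0.5, 290 with a threshold of 2 and 72 with 3. Leaving out single libraries gave 122 to 144. It was 124 after quantile normalization, 135 with the model of highest mean, and 139, of which 116 are members, without Bio Repeat 3. Of the line differences in black given singly, which were not called, 3 reversed: leaving out single libraries gave -4.14 to 0.35 for Glyma.09G055000, -4.09 to 0.36 for Glyma.09G055100 and -1.60 to 0.73 for Glyma.10G125800, the last also at 0.042 without Bio Repeat 3. No region difference of the 131 members and no repeat 3 difference of the 24 called members reversed. Of 2489 recomputed region differences 155 moved by more than the spread between repeats, and of 480 recomputed repeat 3 differences of called members 198 no longer passed the threshold. No member was called between the lines, so the alternatives planned for line differences of called members had nothing to recompute. The rule has no filter on low values, so its value without one is the count reported. Depth limits the members listed at 0 in yellow, where 3 hits per kilobase were 0.0156 to 0.0352 RPKM. The cause of each change was not tested.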
